A study of Mus musculus with 42 samples.

Results

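Hippocampal gene expression was compared between mice on a western diet and mice on a control diet, neither of them with NaKtide. The compared libraries were all those labelled hippocampus without NaKtide, 6 on the control diet and 5 on the western diet, 11 of the 42 libraries of the series. Each diet was fed for 12 weeks. Fat made up 11% of the control diet and 42% of the western diet, carbohydrate 62% and 42.7%, and protein 27% and 15.2%. The other 2 hippocampus groups received the same diets and NaKtide, a peptide that blocks signalling from the Na,K-ATPase sodium pump to the kinase Src, from a transgene switched on with 300 mg/kg doxycycline, and entered the fit only to estimate the spread. The labels do not say whether the mice without NaKtide carried the transgene or received doxycycline, and strain, age and sex were not among the labels used here. Nor do they say that each library came from a separate mouse, so p-values measure the spread between these libraries, which may be technical.

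The hippocampus stores new memories through a circuit that runs from the granule cells of the dentate gyrus to the pyramidal cells of Ammon's horn. Its principal cells signal through glutamate receptors and are held in check by interneurons that release GABA and peptides such as somatostatin and neuropeptide Y. Diets rich in fat and sugar are widely used to induce obesity and insulin resistance in mice, and work on their effect in the brain has centred on insulin signalling, mitochondria, synapses and microglia, the resident immune cells.

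The labelled tissue was checked against its own markers and those of its neighbours. Each list was summarised in a library as the mean log2(CPM + 1) of its tested members. CPM is the count of a gene relative to the library total, here scaled with TMM factors. Pyramidal cell markers stood between 4.69 and 5.86 and dentate granule cell markers between 2.40 and 5.26 in the 11 libraries. In control 1 and 3 the dentate score was 2.81 and 2.40, and the cerebellum score of the same library 2.94 and 3.19. Scores of different lists have no common scale. The cerebellum list includes Calb1 and Itpr1, at means of 133 and 239 CPM in controls, while Pcp2 stood at 0 and 0.134 CPM in control 1 and 3. Comparing the 2 scores therefore cannot tell whether the dentate gyrus is present there. Markers of the striatum, a neighbouring brain region, reached 6.64 to 7.24 in control 3, 4, 5 and 6, and stood between 3.43 and 5.02 in the other 7 libraries. Hypothalamus markers stood at 4.37 and 4.52 in control 5 and 6 and between 0.64 and 2.62 elsewhere, and the hypothalamic hormone gene Oxt stood at 38.2 and 42.0 CPM in that pair and at no more than 0.402 CPM in the other 9. Western 4 had the highest cerebellum score, 5.47 against 2.94 to 3.86, and western 5 the highest monoamine neuron score, 5.99 against 1.06 to 3.27. Of the pituitary hormone genes, Cga had 0 counts in all 11 libraries, Prl at most 3 and Tshb 3 to 12. The pituitary score, which rests on Gh as the only member tested, ran from 0 to 1.53.

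Control 5 and 6 also resembled each other more than any other pair did. The mean chi-square per gene between their counts was 2.45, against 7.69 for the next closest pair, western 2 and 3, and 11.4% of genes differed between them at p under 0.05. Both held Xist, at 11.4 and 9.90 CPM, together with Y-linked transcripts at 49.1 and 52.3 CPM, whereas Xist did not exceed 0.151 CPM in the other 9. Their counts differed by more than counting noise, which separate preparations of the same RNA would also do, so whether they are separate samples cannot be told from the counts. They were kept as 2 libraries as labelled, and the main results are also given with them left out or summed. Library totals ran from 5754798 to 8213859 counts, and 15172 to 16042 genes had at least 10 counts.

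With all 22 hippocampus libraries in the fit, no gene of 16442 tested passed an adjusted p of 0.05 by edgeR's quasi-likelihood test, which is 0% of them, and the smallest adjusted p was 0.0602. At an unadjusted p under 0.05, 4046 genes (24.6%) passed, 1924 of them higher on the western diet (11.7%) and 2122 lower (12.9%). In 285 genes (1.73%) every western library lay above every control library, and in 213 genes (1.3%) every one lay below. DESeq2 called 828 of the 31544 genes to which it gave a p (2.62%), 535 higher (1.7%) and 293 lower (0.929%). Some of the 31544 genes, such as Fabp1 and Irs1, got no adjusted p and could not be called. All 828 calls were among the 16442 genes tested by edgeR, from which the list members below are drawn. edgeR called 60 of 15696 genes (0.382%) when only the 11 compared libraries were fitted, 39 of 16385 (0.238%) with control 5 and 6 summed, and 2230 of 16584 (13.4%) with that pair left out. The last count held 1291 genes higher (7.78%) and 939 lower (5.66%). Of the genes called by DESeq2, 753 were among the 2230, which is 90.9% of the former and 33.8% of the latter. Leaving out control 5, control 6 or western 5 alone gave 28, 515 and 345 calls, and leaving out any other single library gave 0. In all results that follow, fewer cells of a type and less RNA per cell cannot be told apart in bulk tissue.

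**Figure D1:**
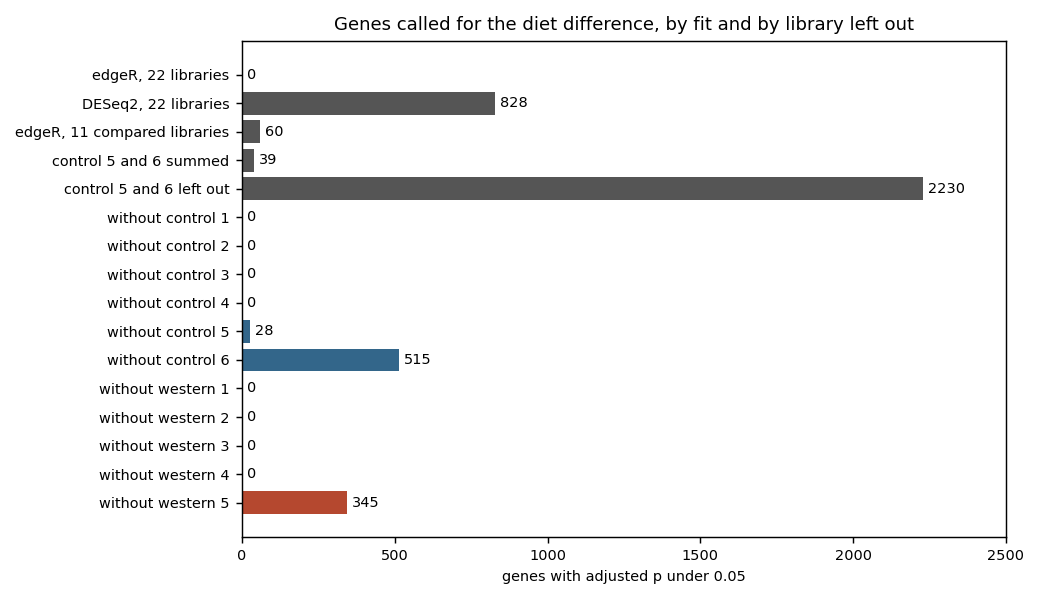
Bars give the number of genes with an adjusted p under 0.05 for the diet difference, by fit and by the library left out. The fit of all 22 libraries gave 0 calls, the fit without control 5 and 6 gave 2230, and of the single libraries only control 5, control 6 and western 5 gave any call when left out.

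The genes of smallest p among those higher on the western diet included Luzp1, Camta1, Elovl4, Atp2b3 and Kdm7a, which are described first by library. Luzp1, a leucine zipper protein of the actin cytoskeleton (GRCm38 chr4:136469761-136554780, plus strand), stood between 43.0 and 49.1 CPM in the 6 controls, with a median of 44.4. Its western levels were 81.4, 79.4, 75.3, 103 and 76.2 CPM in libraries 1 to 5. Every western library lay far above every control, and the log2 difference was 0.87 ± 0.15 (SE) with an adjusted p of 0.0602 by edgeR. Without control 5 and 6 the adjusted p was 0.00901, and DESeq2 gave 0.000116.

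Camta1, a calmodulin-binding transcription activator highly expressed in neurons (chr4:150917322-151861876, minus strand), stood between 113 and 193 CPM in controls, with a median of 142. In western 1 to 5 it stood at 273, 288, 258, 311 and 257 CPM. The groups did not overlap, with a log2 difference of 0.90 ± 0.16, an adjusted p of 0.0602 by edgeR, and 0.00527 without control 5 and 6. Elovl4, the elongase that makes very long chain fatty acids (chr9:83778692-83806277, minus strand), had a control median of 32.1 CPM in a range of 24.7 to 33.5. Its western levels were 41.6, 49.8, 47.3, 51.8 and 46.4 CPM, again all above the controls. The log2 difference was 0.65 ± 0.12, and it was 0.72 after the trend with transcript length was removed. With that trend removed, the differences of the other 4 genes named first were smaller than before. They were 0.68 for Luzp1, 0.64 for Camta1, 1.34 for Atp2b3 and 0.75 for Kdm7a.

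Atp2b3, which encodes a plasma membrane calcium pump (chrX:73503086-73571005, plus strand), stood between 17.9 and 32.3 CPM in controls, with a median of 27.8, and at 52.5, 80.8, 81.8, 103 and 31.2 CPM in western 1 to 5. Western 1 to 4 were well above the controls, while western 5 lay within their range, and the log2 difference was 1.41 ± 0.27. Western 4, the highest, is also the library with the highest cerebellum score, and the part of that score in this value was not tested. Kdm7a, a histone demethylase, stood between 12.1 and 24.5 CPM in controls, with a median of 17.9, and at 45.4, 29.1, 30.5, 36.3 and 26.8 CPM on the western diet. The groups did not overlap, and the log2 difference was 0.94 ± 0.18.

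The remaining genes of this group were March1, a membrane ubiquitin ligase, Lifr, a receptor of leukaemia inhibitory factor, Nufip2, an RNA-binding protein, Adcy9, an adenylyl cyclase, Fgd4, which activates the GTPase Cdc42, Palm2, a paralemmin, and Gk, glycerol kinase. Their log2 differences ran from 0.96 for Gk to 1.74 for Adcy9, and their adjusted p from 0.0602 to 0.0625. Adcy9 shows how much western 5 can differ from its group. It stood at 21, 32.3, 41.1 and 39 CPM in western 1 to 4 and at 10.9 in western 5, inside the control range of 3.58 to 12.3. All 12 genes of smallest p on this side passed the test with control 5 and 6 left out, with adjusted p from 0.00527 to 0.00901. They were chosen by p from libraries that this fit reuses, and it called 7.78% of all genes higher, so their passing is not separate support.

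**Figure D2:**
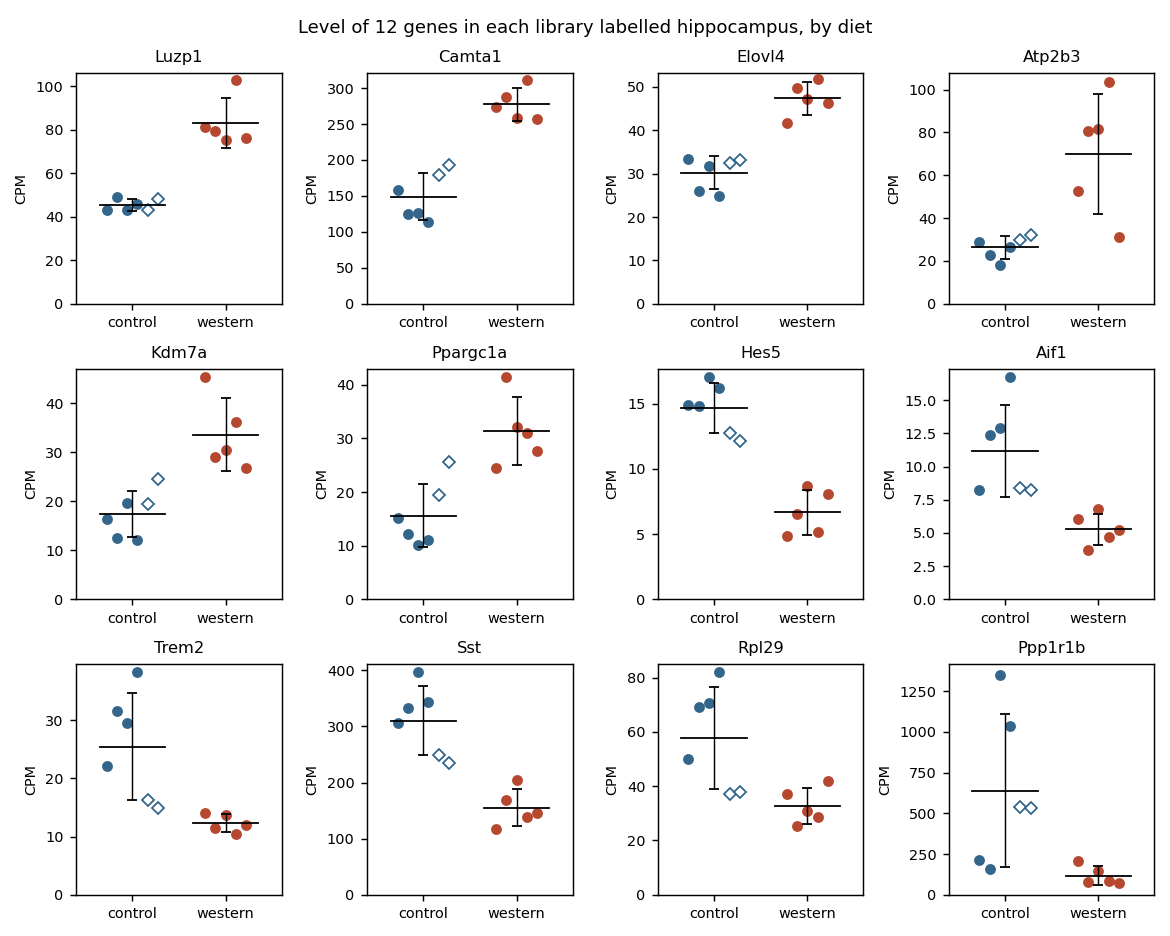
Each panel gives the level of 1 gene in CPM in each of the 6 control and 5 western libraries, with the group mean as a horizontal line, the SD as a bar, and control 5 and 6 as open diamonds. Luzp1, Camta1, Elovl4, Kdm7a, Hes5, Aif1, Trem2 and Sst separate the diets in every library, Ppargc1a overlaps through control 6, Rpl29 through control 5 and 6 and Atp2b3 through western 5, and Ppp1r1b spans 160 to 1351 CPM in the controls.

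On the other side, the gene with the smallest p among those lower on the western diet was Hes5, a transcriptional repressor induced by Notch signalling in neural progenitors and astrocytes (chr4:154960923-154962371, plus strand). Control libraries held 12.2 to 17.1 CPM, with a median of 14.9, and western 1 to 5 held 4.82, 6.56, 8.67, 5.18 and 8.05. All western libraries were lower, with a log2 difference of -1.14 ± 0.23, an adjusted p of 0.0625 by edgeR, 0.0106 without control 5 and 6, and 0.00223 by DESeq2. Rtl1, an imprinted gene derived from a retrotransposon, stood between 5.58 and 8.89 CPM in controls and between 0.864 and 3.00 in western libraries, with a log2 difference of -1.98 ± 0.45. Crlf2, a cytokine receptor subunit, had a log2 difference of -0.70 ± 0.16, with controls between 11.1 and 16.9 CPM and western libraries between 8.16 and 10.4.

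Further genes on this side also had groups that did not overlap. Gnptg, which helps tag lysosomal enzymes with mannose 6-phosphate, stood between 64.3 and 77.8 CPM in controls and between 49.0 and 57.4 on the western diet, a log2 difference of -0.41 ± 0.09. Lsp1, an actin-binding protein of leukocytes, differed by -1.25 ± 0.29 log2 units, Zfp580, a zinc finger protein, by -0.91 ± 0.22, and Spag7 by -0.46 ± 0.11, and in none of these 3 genes did the groups overlap. All 12 genes of smallest p on this side passed with control 5 and 6 left out, with adjusted p from 0.00621 to 0.0217. These too were chosen by p from libraries that the fit reuses, and it called 5.66% of all genes lower.

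Transcripts of the protein synthesis machinery were lower in western libraries as a body. Every one of the 82 cytosolic ribosomal protein genes tested had a negative log2 difference, with a median of -0.57 against -0.03 over all tested genes. At an unadjusted edgeR p under 0.05, 67 of the 82 were lower and 0 higher, against 12.9% and 11.7% of all genes. DESeq2 called 10 of them lower, against 293 of the 16442 genes tested by edgeR. Without control 5 and 6 edgeR called 35 lower, against 5.66% of all genes.

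To show a short motif found upstream of some of these genes, the sequences below give the 250 bases before the start of Rpl37, a protein of the large cytosolic subunit, and Mrpl52, of the large mitochondrial subunit, from RefSeq on GRCm38.p6. Each is the member of smallest p in its list with a single entry whose window holds the motif and no annotated gene. Both were thus chosen for holding the motif. Capitals mark TTCCGG or its other strand, CCGGAA, the core bound by many ETS family transcription factors. The Rpl37 window is chr15:5116363-5116612 and that of Mrpl52 chr14:54426659-54426908, both on the plus strand.

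Rpl37: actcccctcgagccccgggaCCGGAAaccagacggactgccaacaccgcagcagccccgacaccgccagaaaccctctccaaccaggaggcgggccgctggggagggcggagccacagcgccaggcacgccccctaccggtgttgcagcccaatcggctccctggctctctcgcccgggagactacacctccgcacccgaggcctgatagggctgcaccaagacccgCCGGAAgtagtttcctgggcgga
Mrpl52: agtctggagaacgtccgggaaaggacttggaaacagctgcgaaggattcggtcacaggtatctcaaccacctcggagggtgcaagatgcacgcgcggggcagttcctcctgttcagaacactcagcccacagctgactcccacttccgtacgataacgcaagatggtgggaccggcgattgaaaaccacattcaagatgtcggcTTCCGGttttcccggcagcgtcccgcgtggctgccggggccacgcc

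Of the 61 cytosolic ribosomal protein genes with a RefSeq promoter entry, 24 held the motif on either strand (39.3%), as did 27 of 68 mitochondrial ribosomal protein genes (39.7%) and 20 of 62 nuclear respiratory chain genes (32.3%). Over all 27025 genes with an entry the share was 13.6%, and among microglia markers it was 0 of 14. A match describes these letters in this window and does not show binding. Rpl37 stood at 220 ± 74.4 CPM (SD, n = 6) in controls and 131 ± 39.0 (SD, n = 5) in western libraries, a log2 difference of -0.75 ± 0.23 that passed without control 5 and 6 with an adjusted edgeR p of 0.0236. Mrpl52 stood at 36.3 ± 14.9 CPM (SD, n = 6) and 23.5 ± 9.12 (SD, n = 5), and its adjusted p without that pair was 0.0765.

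Rpl29, a large subunit protein of 1126 exonic bases, had the smallest p of the cytosolic ribosomal list. Its control levels ran from 37.0 CPM in control 5 to 82.1 in control 4, with a median of 59.6, and western 1 to 5 stood at 36.9, 25.5, 30.9, 28.6 and 42.0. Western 5 alone lay within the control range. The log2 difference was -0.82 ± 0.19 with an adjusted p of 0.0787 by edgeR, and 0.00621 without control 5 and 6. Rpl41, the smallest ribosomal protein, had a control median of 412 CPM and stood at 310, 179, 231, 225 and 304 CPM in western 1 to 5, with a log2 difference of -0.91 ± 0.28.

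Mitochondrial genes encoded in the nucleus followed with smaller differences. Of 76 mitochondrial ribosomal protein genes tested, 28 were lower and 1 higher at an unadjusted p under 0.05, with a median of -0.30, and 15 were lower and 1 higher after adjustment once control 5 and 6 were left out. Among 75 nuclear genes of the respiratory chain, 32 were lower and 1 higher at an unadjusted p, with a median of -0.38. Without that pair 13 were called lower, against 5.66% of all genes. At that unadjusted p 12.9% of all genes were lower, and 31.4% of the 4114 genes with the shortest exons (75 to 2178 bases). The median exon lengths of the 2 lists were 2394 and 1756 bases. Cox6a1 and Cox8a, subunits of cytochrome c oxidase, had log2 differences of -0.58 ± 0.18 and -0.52 ± 0.17. By contrast, the 13 respiratory genes encoded by the mitochondrial genome had a median of -0.13 and none below an unadjusted p of 0.05. The lowest p of those 13 belonged to mt-Co1, at 0.228 before adjustment.

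Levels of the ribosomal list did not split by diet alone. Its score was 7.07, 7.91, 7.75, 8.08, 7.21 and 7.15 in control 1 to 6, and 7.26, 6.64, 6.82, 6.76 and 7.44 in western 1 to 5. Western 2, 3 and 4 were lowest, control 2, 3 and 4 highest, and control 1, 5 and 6 lay just below western 1 and 5. The share of counts in genes under 2000 exonic bases was also lowest in the same 3 western libraries, at 20.3%, 22.3% and 22.4% in western 2, 3 and 4 and 26.1% to 32.1% in the other 8 libraries. Across all genes, those with the shortest summed exons (75 to 2178 bases, 4114 genes) had a median log2 difference of -0.33, and those with the longest (6429 bases or more, 4108 genes) had 0.21. With each library's trend of counts with length removed, the ribosomal median was -0.40 and the respiratory median -0.17, and the part of transcript length in these lists was not tested further.

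**Figure D3:**
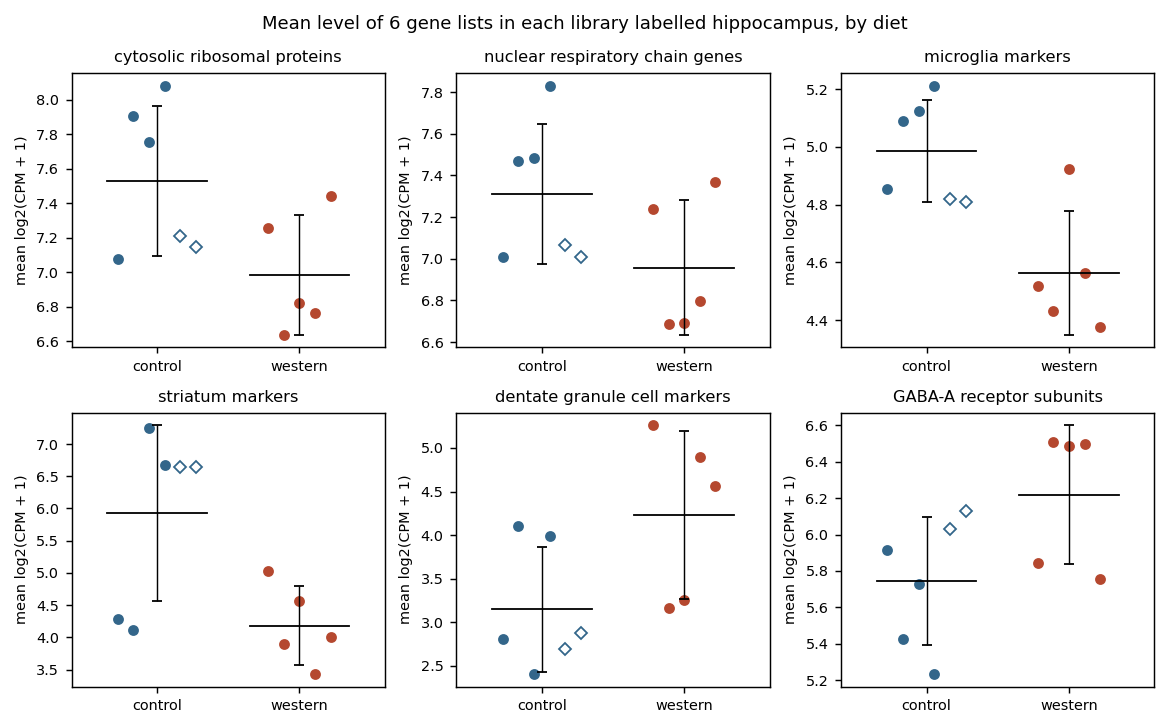
Each panel gives the mean log2(CPM + 1) of 1 gene list in each of the 6 control and 5 western libraries, with the group mean, the SD as a bar, and control 5 and 6 as open diamonds. Ribosomal and respiratory genes were lowest in western 2, 3 and 4, microglia markers were lower in 4 western libraries than in any control, and striatum markers divided the controls into 4 high and 2 low libraries.

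Microglial transcripts were lower on the western diet, and the members differed in how far. Of 20 microglia markers, 13 were lower and 0 higher at an unadjusted p under 0.05, with a median of -0.47, where 12.9% of all genes were lower. DESeq2 called 4 of them lower, against 293 of the 16442 genes tested by edgeR. Without control 5 and 6 edgeR called 8 lower, against 5.66% of all genes. Aif1, the source of the IBA1 protein used to stain microglia (chr17:35170991-35176068, minus strand), stood between 8.24 and 16.7 CPM in controls, with a median of 10.4, and at 6.02, 3.73, 6.77, 4.69 and 5.21 CPM in western 1 to 5. No western library reached the lowest control. Its log2 difference was -1.07 ± 0.21, the adjusted p was 0.0625 by edgeR and 0.00818 without control 5 and 6, and the difference was -0.85 with the length trend removed.

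Trem2, a lipid-sensing receptor of microglia in which coding variants alter the risk of Alzheimer disease (chr17:48346401-48354147, plus strand), had a control median of 25.8 CPM in a range of 14.9 to 38.2. Western libraries 1 to 5 stood at 14.1, 11.5, 13.8, 10.5 and 12.0 CPM. The groups did not overlap, though control 5 and 6, at 16.3 and 14.9, lay close to the western range. The log2 difference was -1.04 ± 0.25, with an adjusted edgeR p of 0.0787, and 0.0079 without that pair. Fcer1g, an Fc receptor chain that is not on the list of microglia markers, differed by -1.04 ± 0.23 log2 units.

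Other members of the list are named here after their values were seen. Tyrobp, the adaptor of TREM2, differed by -0.66 ± 0.24 log2 units, the lysosomal protein gene Cd68 by -0.83 ± 0.20 and the complement gene C1qa by -0.63 ± 0.21, and all 3 passed without control 5 and 6. The purinergic receptor P2ry12 stood at 23.1 ± 6.60 CPM (SD, n = 6) in controls and 25.1 ± 8.85 (SD, n = 5) on the western diet, a log2 difference of 0.12 ± 0.26 whose sign turned without western 3. The fractalkine receptor Cx3cr1 differed by -0.19 ± 0.18. Library scores of the list were 4.86, 5.09, 5.12, 5.21, 4.82 and 4.81 in control 1 to 6 and 4.52, 4.43, 4.92, 4.56 and 4.38 in western 1 to 5, so western 3 reached the controls.

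Inflammatory mediators gave little signal in either direction. Tnf, Il1b, Il6, Ccl2, Ccl3, Cxcl10, Nlrp3 and Tlr4 were too low to test, with at most 2 counts per library for Tnf, 6 for Il1b and 1 for Il6. The 10 genes of the cytokine and NF-kB list that were tested had a median of 0.01, and none passed an unadjusted p of 0.05. Il18, an inflammasome product, had a log2 difference of -0.41 ± 0.21. Of 19 interferon response genes, 1 was higher and 1 lower at an unadjusted p, against 11.7% and 12.9% of all genes. The lower one, Psmb8, an immunoproteasome subunit, differed by -0.85 ± 0.33.

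Region markers differed in opposite directions, and their spread within the groups was wide. All 12 dentate granule cell markers had positive log2 differences, with a median of 1.28, and 8 were higher at an unadjusted p under 0.05, against 11.7% of all genes. In 3 of the 12 every western library lay above every control, against 1.73% of all genes. DESeq2 called 5 of them higher, against 535 of the 16442 genes tested by edgeR. Without control 5 and 6 edgeR called 3 higher, against 7.78% of all genes. Npnt, an extracellular matrix protein, stood between 9.19 and 18.3 CPM in controls, with a median of 10.8, and at 33.3, 29.1, 23.5, 27.9 and 32.0 in western 1 to 5. Its groups were well apart, with a log2 difference of 1.25 ± 0.30 and an adjusted edgeR p of 0.0787. Prox1, the factor that specifies granule cells, had 15.9 ± 6.96 CPM (SD, n = 6) in controls and 50.6 ± 37.2 (SD, n = 5) in western libraries. Glis3, a zinc finger factor of the same list, differed by 1.16 ± 0.30 log2 units. The list score was 2.81, 4.11, 2.40, 3.99, 2.70 and 2.87 in control 1 to 6 and 5.26, 3.16, 3.26, 4.89 and 4.56 in western 1 to 5.

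Pyramidal cell markers were higher in 4 of 15 and lower in 0 at an unadjusted p, against 11.7% of all genes higher. Their median was 0.55. Nectin3, a synaptic adhesion molecule, had a control median of 12.5 CPM and stood at 34.9, 23.2, 31.7, 30.7 and 15.6 CPM in western 1 to 5, a log2 difference of 1.08 ± 0.28. Fibcd1, a marker of CA1 pyramidal cells, stood between 9.05 and 19.1 CPM in 5 controls and at 59.8 in control 2, and at 24.6, 56.9, 103, 122 and 31.4 in western 1 to 5.

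Striatum markers were lower in 9 of 12 and higher in 0 at an unadjusted p, against 12.9% of all genes lower. The list median was -2.18. Ppp1r1b, the DARPP-32 protein of medium spiny neurons, stood at 214, 160, 1351, 1038, 537 and 535 CPM in control 1 to 6 and at 205, 80.9, 145, 82.0 and 74.5 in western 1 to 5. Control 1 and 2 were within or near the western range, and control 3 to 6 were far above it. Penk, the enkephalin precursor, followed the same libraries, from 84.5 and 112 CPM in control 1 and 2 to 510 to 981 in control 3 to 6, against 26.1 to 146 on the western diet. Among the genes with the largest differences below the controls without overlap, Rxrg, Ptprv and Clec12a were also lower in control 1 and 2 than in control 3 to 6. Rxrg, a retinoid receptor, stood at 6.99 and 6.49 CPM in control 1 and 2 and 25.2 to 68.6 in control 3 to 6, against 2.96 to 4.82 on the western diet, with a log2 difference of -3.01 ± 0.75. The part of the striatum markers in the results for other genes was not tested.

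Markers of the other neighbours varied widely within the groups. Of 9 hypothalamus markers 4 were lower and 0 higher at an unadjusted p, with a median of -2.28 with all libraries and -0.79 without control 5 and 6, when 0 were called. Of 9 cerebellum markers 4 were higher and 0 lower at an unadjusted p, and 4 were called without that pair. At that unadjusted p 12.9% of all genes were lower and 11.7% higher, and 7.78% were called higher without the pair. Choroid plexus markers had a median of -1.31, with 1 of 12 lower at an unadjusted p, and ran from 1.17 to 6.11 among controls and from 1.78 to 4.69 on the western diet. Folr1, a folate receptor of that epithelium, stood at 36.9 CPM in control 4 and 0 in control 1. Neocortex and thalamus markers had none past an unadjusted p, with medians of 0.15 and 0.19. Neurod1, a factor of granule cells in both cerebellum and dentate gyrus, stood between 1.21 and 5.08 CPM in controls and at 11.9, 8.34, 10.9, 23.7 and 7.89 in western 1 to 5, so its groups did not overlap. Its log2 difference was 2.13 ± 0.50, with an adjusted p of 0.0787 by edgeR, 0.00709 by DESeq2 and 0.0373 without control 5 and 6. The Purkinje cell gene Pcp2 stood at 71.9 CPM in western 4 and at no more than 2.68 in the other 10 libraries.

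**Figure D4:**
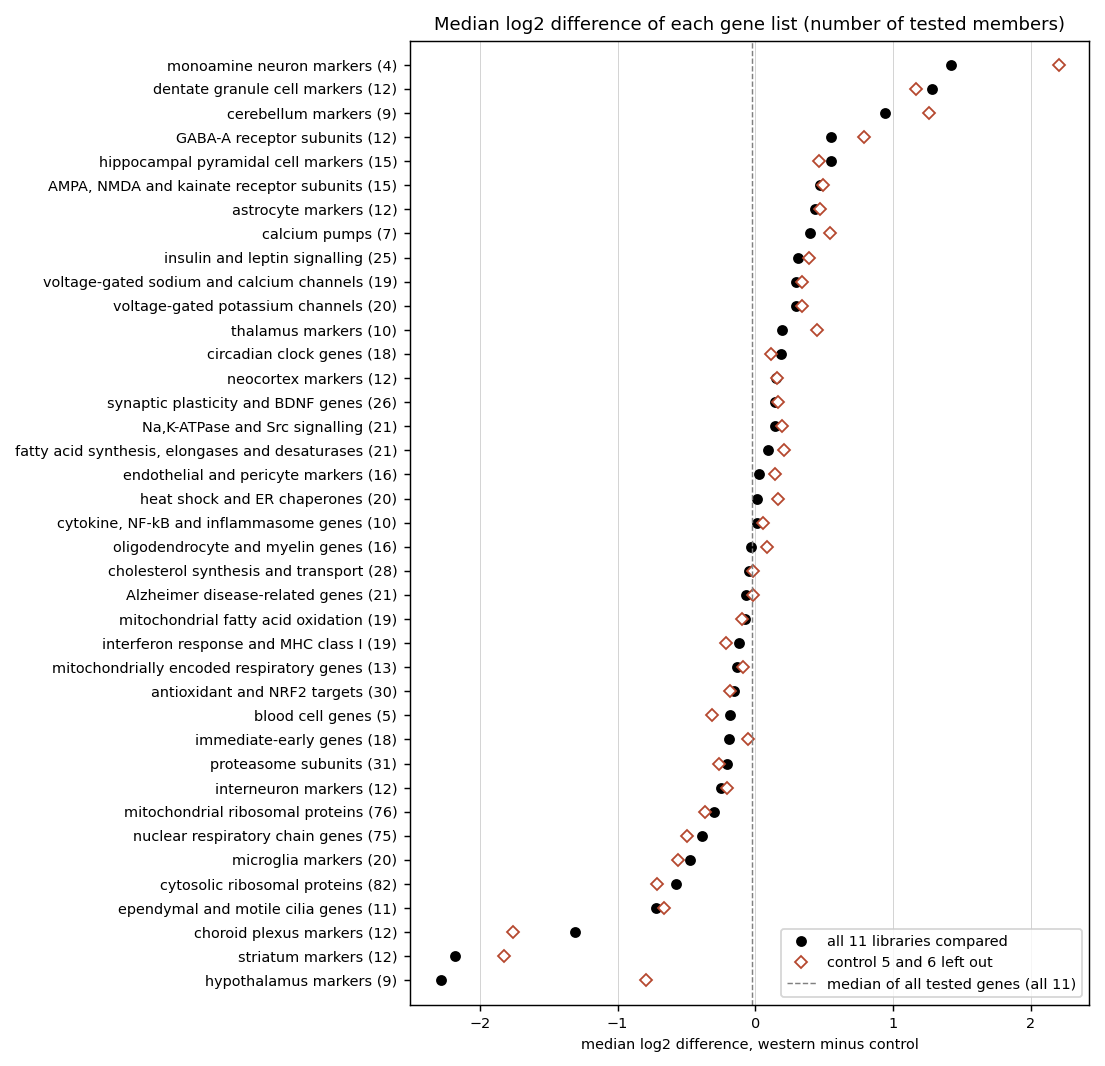
Points give the median log2 difference, western minus control, of the tested members of each gene list, with all 11 compared libraries (filled) and with control 5 and 6 left out (open). The pituitary list, with 1 tested member, is not shown. The dashed line marks the median of all tested genes. Region markers spread furthest, from hypothalamus and striatum at the low end to dentate granule and monoamine neuron markers at the high end, and the hypothalamus list moved most when the pair was left out.

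Some receptor and channel genes of neurons stood higher in western 2, 3 and 4, while western 1 and 5 lay within the control range of the GABA-A list score (5.85 and 5.76 against 5.23 to 6.13). Of 12 GABA-A receptor subunits, which form the main inhibitory receptor, 6 were higher and 0 lower at an unadjusted p under 0.05, with a median of 0.55. DESeq2 called 4, against 535 higher of the 16442 genes tested by edgeR, and 4 were called without control 5 and 6, against 7.78%. At the unadjusted p 11.7% of all genes were higher, and 25.6% of the 4108 genes with the longest exons (6429 bases or more). The median exon length of the list was 6451 bases. Gabrb2 stood between 4.78 and 24.4 CPM in controls, with a median of 14.3, and at 20.6, 83.0, 68.3, 67.2 and 13.6 CPM in western 1 to 5. Western 1 and 5 lay within the control range and the other 3 far above it, and the log2 difference was 1.78 ± 0.44. Gabra5, a subunit enriched in the hippocampus and named after its values were seen, had 43.2 ± 6.37 CPM (SD, n = 6) in controls and 110 ± 44.5 (SD, n = 5) on the western diet, and its groups did not overlap.

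Among excitatory receptors, 10 of 15 AMPA, NMDA and kainate receptor subunits had a positive difference and 5 a negative one. At an unadjusted p 6 were higher and 0 lower, against 11.7% of all genes higher. The median was 0.47, or 0.22 with the length trend removed. Grin2a, an NMDA receptor subunit, stood between 37.5 and 114 CPM in controls, with a median of 63.7, and at 149, 121, 188, 195 and 97.7 CPM in western 1 to 5, a log2 difference of 1.17 ± 0.34. Gria2, the subunit that sets the calcium permeability of AMPA receptors, differed by 0.95 ± 0.31 and passed without control 5 and 6 at an adjusted edgeR p of 0.0305. Grin2a did not pass there, at 0.0592.

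Voltage-gated channels and calcium pumps had smaller medians. Of 20 potassium channel genes 6 were higher and 0 lower at an unadjusted p, with a median of 0.29, and of 19 sodium and calcium channel genes 5 were higher and 0 lower, with a median of 0.30. These medians were 0.08 and 0.05 with the length trend removed, and 0.35 for the GABA-A list. At the same unadjusted p 11.7% of all genes were higher, and 25.6% of the 4108 genes with the longest exons. The median exon lengths of the 2 channel lists were 7234 and 11150 bases. Scn1a, the sodium channel of fast-spiking interneurons, differed by 1.13 ± 0.30 log2 units, Kcna1, an axonal potassium channel, by 1.24 ± 0.36, and Kcnc1, of the fast-spiking Kv3 type, by 0.47 ± 0.14. All 7 calcium pump genes had positive differences, with a median of 0.40, and 3 were higher at an unadjusted p. Beside Atp2b3 these included Atp2c1, the pump of the Golgi apparatus, which differed by 0.61 ± 0.19.

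Genes of synaptic plasticity as a list stood near the rest of the transcriptome. Of 26 tested, 3 were higher and 0 lower at an unadjusted p, against 11.7% and 12.9% of all genes, with a median of 0.14. Creb1, the transcription factor of activity-dependent genes, stood between 13.7 and 30.1 CPM in controls and at 34.3, 35.3, 35, 33.1 and 30.4 in western 1 to 5. The groups were adjacent without overlap, and the log2 difference was 0.58 ± 0.16, with an adjusted edgeR p of 0.0866, and 0.00843 without control 5 and 6. Bdnf, the neurotrophin often measured in this setting and named after its values were seen, had 13.4 ± 2.63 CPM (SD, n = 6) in controls and 24.5 ± 7.02 (SD, n = 5) on the western diet without overlap, yet its adjusted p was 0.270 by edgeR and 0.328 without that pair. Immediate-early genes had a median of -0.19, with 2 of 18 higher and 1 lower at an unadjusted p. The lower one, Jund, differed by -0.61 ± 0.17 with non-overlapping groups.

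Among interneuron markers, Sst and Npy were lower and the other 10 did not pass. Of the 12 markers, with a median of -0.25, 2 were lower and 0 higher at an unadjusted p, against 12.9% of all genes lower. Both were called by DESeq2, against 293 lower of the 16442 genes tested by edgeR, and without control 5 and 6, against 5.66% of all genes. Differences over the list ran from -1.35, that of Npy, to 0.24, and other peptide genes of it did not pass. Sst, somatostatin (chr16:23889573-23890958, minus strand), stood between 234 and 397 CPM in controls, with a median of 320, and at 116, 169, 205, 139 and 146 CPM in western 1 to 5. Its groups did not overlap, and the log2 difference was -1.0 ± 0.23, with an adjusted edgeR p of 0.0787, 0.00709 by DESeq2 and 0.0143 without that pair. Npy, neuropeptide Y, stood at 76.6 and 80.8 CPM in control 5 and 6, 133 to 180 in the other controls, and 46.9, 51.7, 81.7, 44.3 and 33.6 in western 1 to 5, a log2 difference of -1.35 ± 0.37. Outside that list, Tac2, which encodes neurokinin B, stood between 12.4 and 52.2 CPM in controls and between 2.68 and 9.03 on the western diet. Both Sst and Npy are also expressed in striatum, whose markers were high in control 3 to 6, and their part in these values was not tested. Sst stood at 305 and 334 CPM in control 1 and 2 and between 234 and 397 CPM in control 3 to 6. With the length trend removed Sst differed by -0.63.

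Of 12 astrocyte markers 4 were higher and 0 lower at an unadjusted p, against 11.7% of all genes higher. The list median was 0.44, or 0.20 with the length trend removed, and the other 8 did not pass. Without control 5 and 6 edgeR called 3 higher, against 7.78% of all genes. Differences over the list ran from -0.09 to 1.04, the highest that of Aqp4, with 10 positive and 2 negative. The list score ran from 6.66 to 7.16 in controls and from 7.19 to 7.43 on the western diet, so every western library lay above every control. Aqp4, the water channel of astrocyte endfeet, stood at 31.7 to 39.9 CPM in control 1 to 4, 62.2 and 69.3 in control 5 and 6, and 79.9, 111, 84.5, 118 and 82.7 in western 1 to 5. Slc4a4, a bicarbonate transporter, had a control median of 53.8 CPM and 113, 129, 124, 125 and 108 on the western diet, again without overlap, and a log2 difference of 0.90 ± 0.28. Oligodendrocyte and endothelial lists had medians of -0.03 and 0.03, with 1 of 16 and 1 of 16 members past an unadjusted p.

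Insulin and leptin signalling genes were higher in 10 of 25 and lower in 0 at an unadjusted p, against 11.7% and 12.9% of all genes, with a median of 0.31 that was 0.10 with the length trend removed. The median exon length of the list was 8665 bases, and 25.6% of the 4108 longest genes were higher at that p. DESeq2 called 2 higher, against 535 of the 16442 genes tested by edgeR. Without control 5 and 6 edgeR called 6 higher, against 7.78% of all genes. Irs1, an adaptor of the insulin receptor, had a control median of 1.77 CPM and 3.48, 6.11, 5.46, 5.06 and 2.37 on the western diet, with only western 5 inside the control range of 0.906 to 2.66. Its log2 difference was 1.33 ± 0.38, with an adjusted edgeR p of 0.0923, and 0.0211 without control 5 and 6.

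Lipid lists held no larger a share past an unadjusted p of 0.05 than all genes did. At that p 11.7% of all genes were higher and 12.9% lower, and the members named here are single cases. Of 21 genes of fatty acid synthesis, elongation and desaturation, 2 were higher and 0 lower at an unadjusted p, namely Elovl4, described above, and Elovl2, an elongase of polyunsaturated fatty acids, at 0.64 ± 0.22. Cholesterol synthesis and transport had 2 of 28 higher and 2 lower, with a median of -0.05. Hsd17b7, an enzyme of the pathway, differed by 0.69 ± 0.24, and Pmvk, phosphomevalonate kinase, by -0.58 ± 0.23. Among 19 genes of mitochondrial fatty acid oxidation only Ppargc1a, the coactivator of mitochondrial biogenesis (chr5:51454250-51567726, minus strand), passed an unadjusted p. It stood at 10.2 to 15.1 CPM in control 1 to 4, 19.5 and 25.6 in control 5 and 6, and 24.5, 41.4, 32.2, 31.1 and 27.6 in western 1 to 5. Control 6 overlapped western 1, and the log2 difference was 1.00 ± 0.25, with an adjusted edgeR p of 0.0791, and 0.0079 without that pair.

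The sodium pump and its Src pathway, the target of NaKtide, stood near the background. Of 21 genes 4 were higher and 2 lower at an unadjusted p, against 11.7% and 12.9% of all genes, with a median of 0.14. Hras, a small GTPase of the pathway, had a control median of 188 CPM in a range of 166 to 284 and stood at 147, 111, 123, 122 and 155 in western 1 to 5. Its groups did not overlap, and the log2 difference was -0.68 ± 0.17. The pump subunit Atp1b1, named after its values were seen, stood at 780 ± 174 CPM (SD, n = 6) and 1102 ± 99.7 (SD, n = 5) without overlap. Src, also named then, differed by 0.25 ± 0.15.

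Stress and disease lists were mixed. Antioxidant and NRF2 target genes were lower in 6 of 30 and higher in 1 at an unadjusted p, with a median of -0.16, where 12.9% of all genes were lower and 11.7% higher. The lower ones included Gstp1, a glutathione transferase, at -0.73 ± 0.22, and Ftl1, ferritin light chain, at -0.56 ± 0.19. Proteasome subunits were lower in 8 of 31 and higher in 1, with Psmb2 at -0.46 ± 0.16. Among 20 chaperone and stress genes only Ddit3, the CHOP factor of endoplasmic reticulum stress, passed an unadjusted p, at -0.74 ± 0.20. Of 21 Alzheimer disease-related genes 4 were higher and 3 lower, with a median of -0.07, and the lower ones included Psenen, a gamma-secretase subunit, at -0.58 ± 0.20. App and Apoe, named after their values were seen, differed by 0.25 ± 0.15 and -0.40 ± 0.21, and App turned sign with the length trend removed. Circadian genes were higher in 5 of 18 and lower in 0, against 11.7% and 12.9% of all genes. Among the higher ones were Nr1d2, a nuclear receptor of the clock, at 0.68 ± 0.19 with non-overlapping groups, and Clock, at 0.51 ± 0.18.

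Among genes higher on the western diet whose groups did not overlap, 2 of the largest differences were those of liver genes. Alb, serum albumin (chr5:90460897-90476602, plus strand), had 0 to 6 counts in the 6 control libraries and 79, 125, 65, 199 and 55 counts in western 1 to 5. In CPM that is at most 0.806 in controls and 7.72 to 24.6 on the western diet, with a log2 difference of 4.85 ± 1.15 and an adjusted edgeR p of 0.0787, 0.0131 by DESeq2 and 0.0315 without control 5 and 6. Fabp1, the liver fatty acid-binding protein, had 0 or 1 count in controls and 16, 16, 15, 28 and 16 in western 1 to 5. A list of 20 liver genes was drawn up after these values were seen and was therefore not tested as a list. In 14 of its members every western library lay above every control, against 1.73% of all tested genes. The list had only 6 members that were tested in the fit, and given how it was chosen the 14 are not separate support. Its summed level was 3.93 to 8.34 CPM in controls, from 25 to 48 counts, and 35.9, 51.3, 28.2, 68.2 and 32.9 CPM in western 1 to 5, from 194 to 524 counts, with all 20 genes detected in each western library. A like sum over 10 adipose genes overlapped, at 25.4 to 48.1 CPM and 27.8 to 62.9 CPM.

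Liver transcripts were not limited to this group. Among the 31 libraries of the other 6 groups, 3 had a liver sum above that of the lowest western library, and 13 above that of the highest control. The highest of the series, 144 CPM, was a hippocampus library of the western diet with NaKtide, and cerebellum libraries of the western diet without NaKtide reached 64.4 CPM. Whether these transcripts have a part in other results was not tested. Their sum was at most 68.2 CPM in a compared library.

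**Figure D5:**
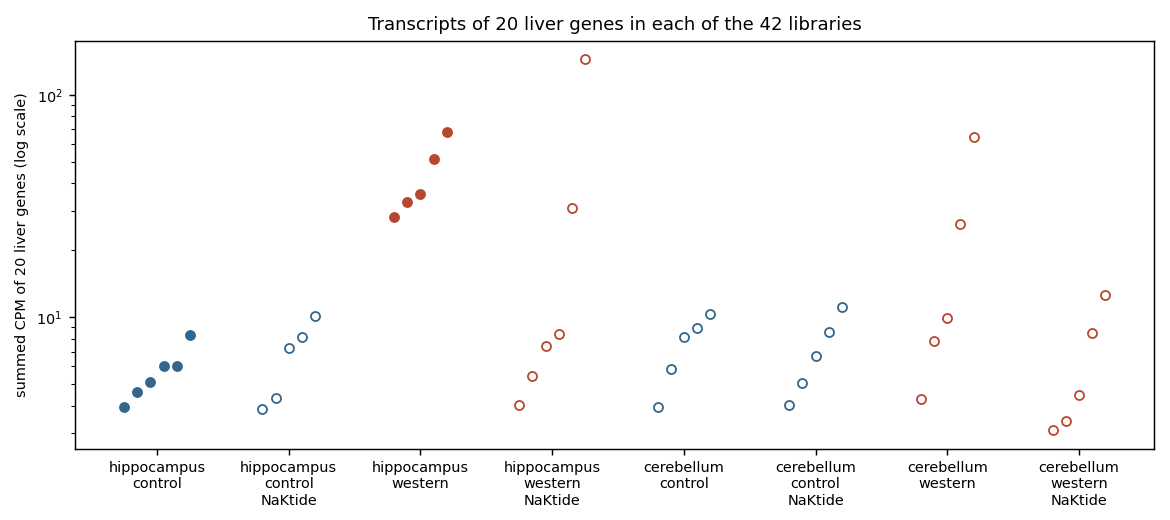
Points give the summed CPM of 20 liver genes in each of the 42 libraries on a log scale, by group, with the 2 compared groups filled. All 5 western hippocampus libraries, at 28.2 to 68.2 CPM, lay above all 6 controls, at 3.93 to 8.34, while single libraries of other western diet groups were as high.

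The diet difference was set beside that in mice with NaKtide, from 11 other hippocampus libraries. Of these, western NaKtide 6 held Xist at 162 CPM and Y-linked transcripts at 0.210 CPM. Y-linked transcripts stood at 30.7 to 70.3 CPM in the 11 compared libraries. Western NaKtide 6 was also in the main fit and the interaction below, and leaving it out with control 5 and 6 gave 0 interaction calls by edgeR. In the mice with NaKtide 0 of 16442 genes passed the adjusted threshold by edgeR, and 1756 (10.7%) had an unadjusted p under 0.05. The difference between the diet effects without and with NaKtide, tested as an interaction, passed for 0 genes after adjustment and for 2399 (14.6%) at an unadjusted p, while DESeq2 called 180. Elovl4 had a log2 difference of -0.30 ± 0.13 with NaKtide, against 0.65 without, and the adjusted edgeR p of the interaction was 0.0823. Rtl1 had 1.16 ± 0.41 with NaKtide, against -1.98 without, with the same interaction p of 0.0823. Of the 285 genes that were higher without overlap, 103 had a positive difference with NaKtide, where 47.5% of all genes did. Of the 213 lower ones, 112 had a negative difference there, and 52.5% of all genes did. By list, the ribosomal median was -0.34 with NaKtide, of the same sign as without, and 1 of its 82 members had an interaction p under 0.05 before adjustment. The dentate and striatum medians were -0.69 and 1.32 with NaKtide, of opposite sign to those without, and 9 and 11 of their 12 members had such an interaction p. The microglia median was 0.10 with NaKtide, and 9 of 20 markers had such an interaction p, against 14.6% of all genes.

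In libraries labelled cerebellum without NaKtide, which share no library with those compared here, the diet difference passed for 3 of 17088 genes (0.0176%) and reached an unadjusted p under 0.05 in 3634 (21.3%). Of the 285 genes higher without overlap in hippocampus, 257 had a positive difference in cerebellum, with a median of 0.31, where 55.8% of all genes were positive. Of the 213 lower ones, 140 were negative, where 44.2% of all genes were. The difference between the 2 region labels passed for 0 genes after adjustment and for 907 (5.31%) at an unadjusted p. Atp2b3 differed by 1.72 ± 0.41 in cerebellum and Alb by 4.74 ± 1.61, while Elovl4 differed by 0.01 ± 0.14. The adjusted edgeR p was 0.0615 for Atp2b3 and 0.116 for Alb. Cerebellum markers themselves had a median difference of 1.77 there, and their part in the Atp2b3 value was not tested. Alb had 4, 32, 1, 77 and 2 counts in cerebellum western 1 to 5, and 0 to 3 in the cerebellum controls. The ribosomal list had a median of -0.67 there, and the length trend was present as well, with medians of -0.26 and 0.22 in the same 2 sets of genes with short and long exons.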

How the data were processed

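RNA was sequenced from 22 libraries labelled hippocampus, of which 11 were compared. The kit was TruSeq stranded mRNA, per the labels' protocols. HISAT2 2.1.0, Trimmomatic 0.38 and DESeq2 1.20.0, with build GRCm38, are listed in the submitters' processing notes. The read counter, with its annotation, was not given in the sources used here. Raw counts per gene were deposited by the authors and used for all tests. Their deposited normalized counts (signal) are the raw counts divided by 1 factor per library, and the deposited FPKM are those divided by 1 factor per gene, which served as the length of a gene in the correction for length. The series' own design text names liver and adipose tissue, so tissue and group were taken from the labels.

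Counts of 54232 genes were fitted with edgeR 4.0.16 in R 4.3.3 (filterByExpr, TMM factors, 4 groups as 1 factor, quasi-likelihood F test). Adjusted p is Benjamini-Hochberg over all tested genes, with calls under 0.05. The SE is the log2 difference over the square root of F. Coordinates are those of GENCODE M21. Alternatives were DESeq2 1.42.0, its size factors in edgeR, no low-count filter, the compared libraries only, control 5 and 6 summed or left out, libraries with Xist left out, a spline offset for length, the replicate number as a block, and each library left out. On simulated data of 16249 genes for this comparison the fit recovered 51% of 2-fold and 95% of 4-fold differences, with 5.19% false calls. The simulated libraries were independent draws, with 100 genes changed at each fold. They held no alike pair, length trend or difference in tissue content, so these rates need not hold for the real libraries. Named genes were the 12 of smallest p and 6 of largest difference without overlap in each direction, and the 2 of smallest p in each list, with a mean of at least 1 CPM, and some of them are not reported here. The compared libraries, gene lists and rule were chosen with earlier results of these data known, and the liver and adipose lists after Alb and Fabp1 were seen.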

Additional observations from a re-analysis of the deposited data

Results flagged for a closer look

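Single libraries stood apart from the rest of their group in 19 of 266 sets of values examined (the named genes and the list scores, by diet). In each of the 19, the gap of the highest or lowest library to its nearest neighbour was a large share of the range of its group. A share of 1 in 20 would be 13.3, a number that holds only for independent, normally distributed values. The sets share libraries and genes, so the 19 cannot be judged against it. Western 4 had the most extreme levels of Luzp1 (103 CPM), Neurod1 (23.7 CPM) and Pcp2 (71.9 CPM) and the highest cerebellum marker score, 5.47. Western 5 stood apart in Slc6a3, the dopamine transporter (108 CPM), and in the monoamine neuron score, 5.99. Western 1 stood apart in Folr1 (3.48 CPM), in the choroid plexus score, 4.69, and in 2 low genes, Gpx6 (0.134 CPM) and Clec12a (0.268 CPM).

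Among controls, control 2 stood apart in Fibcd1 (59.8 CPM), Gabra5 (54.8 CPM), Slc9a4 (1.06 CPM), the pyramidal cell score, 5.29, and the blood cell score, 7.21. Control 4 did so in Tac2 (52.2 CPM), Folr1 (36.9 CPM) and Kcnc1 (158 CPM), and control 1 in Lsp1 (13.7 CPM). The libraries control 3, 5 and 6 and western 2 and 3 were never the one apart. A pair of alike libraries such as control 5 and 6 cannot be found this way, since each is the nearest neighbour of the other.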

How the results depend on the processing

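The number of called genes depended on the fit: 0 by edgeR with all 22 libraries, and 828 by DESeq2, 8 without the low-count filter, 60 with the compared libraries only, 39 with control 5 and 6 summed, 2230 with them left out and 2209 with the libraries holding Xist left out. Leaving out each library gave 0 to 515 calls, 2552 to 4804 genes at an unadjusted p under 0.05, and 548 to 1380 genes without overlap, the last count being 498 with all libraries, 764 with control 5 and 6 summed and 2235 with them left out. Without control 4 and without western 4 the genes at an unadjusted p were 2552 and 2682, and without control 6, western 1 and western 5 the genes without overlap were 915, 796 and 1380. The interaction with NaKtide gave 180 calls by DESeq2 and 2 without control 5 and 6. The main fit did not treat same-numbered libraries as pairs, and the labels do not say whether they were. The correlations of their deviations were -0.51, -0.33, 0.28, -0.35 and -0.20, and 0 of 5 western libraries correlated best with its own number. Tissue content also differed between libraries, so these correlations cannot tell whether the libraries were paired. A replicate block gave 0 calls and 3978 genes at an unadjusted p. Of 93 gene results, 3 changed sign: Slc6a3 ran from -2.47 without western 5 to 4.15, P2ry12 from -0.033 without western 3 to 0.28, and App went to -0.034 with the length trend removed. The cause of these changes was not tested. Of 799 list medians under the alternatives, 12 moved by at least the spread between libraries, and 14 of 40 lists changed sign under some alternative. Size factors, the block and length removal gave 0 calls.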
